A study of Mus musculus with 20 samples.

Results

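The Hox genes of the 4 mouse clusters were followed across 2 genotypes and 2 sorted populations of medullary thymic epithelial cells (mTEC), stromal cells of the thymus that show developing T cells the proteins of the body. Members were the rows of the gene table whose symbol is Hoxa, Hoxb, Hoxc or Hoxd with a number, 39 of 51810 genes. Hoxa holds 11 of them on chromosome 6, Hoxb 10 on chromosome 11 (96194316 to 96368256), Hoxc 9 on chromosome 15 (102921103 to 103036852) and Hoxd 9 on chromosome 2 (74668310 to 74765142), on build mm10. The 4 groups of 3 libraries were Trp53-cHyper mTEChi, Trp53-WT mTEChi, Trp53-cHyper mTEClo and Trp53-WT mTEClo. WT is the wild-type Trp53 genotype, and the sources used here do not say what cHyper stands for, what drives the allele or which gates divided the populations. By convention mTEChi carry more surface MHC class II or CD80 than mTEClo. All thymi came from mice of 4 to 5 weeks, and 75000 EpCAM-enriched mTEC were sorted per sample. Since the sources do not tie replicates to separate animals, the p-values speak of the spread between these libraries alone.

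Hox genes encode homeodomain transcription factors that give embryonic cells their position along the body axis. Genes of one number in different clusters descend from one ancestral gene and are called paralogs, and the number follows the order along the chromosome, low numbers being used towards the head. In the mouse, Hoxa3 is needed for the pharyngeal pouch that forms the thymus. Mature mTEC are known for transcribing many genes of other tissues, a large share of them under the regulator Aire.

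Library totals ran from 22.02 to 47.93 M fragments, and replicate 3 of every group was the shallowest, with 22.02 to 25.31 M. The labelled populations matched their markers: Aire stood at 1280 to 1920 CPM (fragments per M of the TMM-scaled library size) in mTEChi and 11.3 to 51.4 CPM in mTEClo, and Krt14, a basal keratin, at 222 to 576 CPM in mTEChi and 1980 to 2630 CPM in mTEClo. Levels of Hox genes are given as the deposited TPM, which is per length and so lets genes be set side by side, with the 3 libraries of a group in replicate order. A gene was called when its edgeR adjusted p was under 0.05. Folds are on the log2 scale with a standard error (SE), taken as the absolute log2 fold over the square root of the test's F. This SE is approximate, and poor where a group is near 0 fragments. With 37 of 39 Hox genes past the filter on low counts, only Hoxa6 and Hoxd12 were not tested.

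The start regions of 3 members are shown first, because Hoxa2 was the most abundant Hox gene of mTEClo and fell in mTEChi, while Hoxb4 and Hoxd4 rose there. Each is the 250 bases before the start in RefSeq on GRCm38.p6, written along the gene, with every CpG in capitals. They lie at chr6:52164832-52165081 on the minus strand (Hoxa2), chr11:96318017-96318266 on the plus strand (Hoxb4) and chr2:74721728-74721977 on the plus strand (Hoxd4). The Hoxd4 gene as counted begins earlier, at 74711929, so its window belongs to a start inside the gene.
Hoxa2: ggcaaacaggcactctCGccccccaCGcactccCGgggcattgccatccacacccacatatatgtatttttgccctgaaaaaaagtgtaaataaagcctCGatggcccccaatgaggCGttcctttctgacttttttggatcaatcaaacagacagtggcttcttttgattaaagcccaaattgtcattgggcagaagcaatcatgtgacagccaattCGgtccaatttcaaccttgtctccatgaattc
Hoxb4: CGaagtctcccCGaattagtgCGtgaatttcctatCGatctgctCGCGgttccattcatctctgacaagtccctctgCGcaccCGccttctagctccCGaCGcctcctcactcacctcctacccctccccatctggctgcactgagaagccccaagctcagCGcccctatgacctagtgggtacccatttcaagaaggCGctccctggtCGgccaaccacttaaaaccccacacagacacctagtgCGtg
Hoxd4: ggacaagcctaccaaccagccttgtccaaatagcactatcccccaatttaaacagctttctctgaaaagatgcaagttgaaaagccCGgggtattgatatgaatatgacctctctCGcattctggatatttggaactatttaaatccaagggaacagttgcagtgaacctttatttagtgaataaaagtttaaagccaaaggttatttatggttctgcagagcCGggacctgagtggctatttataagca
The Hoxa2 window holds 6 CpG, the Hoxb4 window 14 and the Hoxd4 window 3, against a median of 6 in the same 250 bases of all promoters in the table. RefSeq start windows of 300 bases (250 before and 50 after the start) were matched for 22 of 39 Hox genes, in 24 windows. They held a median of 14.5 CpG (range 4 to 45), against 7 over all 32851 windows, and 20 of 24 lay above that median. The windows of Hox genes called higher in mTEChi in both genotypes held a median of 14 CpG (17 windows, 4 to 37). Those of genes called lower in both held 9 (3 windows, 9 to 20), so the ranges overlapped. The window of Hoxa13, called lower in cHyper alone, is not among these and held 45. Of the 24 Hox windows, 11 had no exon in the 250 bases before the start. Searched on both strands and counted separately, the TATA box letters TATAAA were in 16.7% of the Hox windows (4 of 24) and 13.6% of all windows. The Hox and Pbx composite letters TGATNNAT were in 16.7% (4 of 24) and 8.85%, and the nuclear receptor half-site AGGTCA in 29.2% (7 of 24) and 16.3%. No test was run on these matches, and the Hox counts are small. These matches describe letters in the windows and not bound sites.

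Between the cell types the 39 genes divided by cluster and position. In mTEChi, 28 Hox genes were higher than in mTEClo in both genotypes, among them every tested gene of Hoxc and Hoxd, and 7 were lower in both, all of them in the Hoxa and Hoxb clusters. The genes that fell included Hoxa2, Hoxa3 and Hoxa4, and Hoxb2 and Hoxb3. The genes that rose came from every cluster. In bulk libraries fewer cells of a type and less RNA per cell cannot be told apart, here or in what follows.

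In cHyper, 28 of 37 tested Hox genes were called higher in mTEChi (75.7%, against 38.7% of all 28932 genes tested) and 8 lower (21.6%, against 25.8%), together 97.3% against 64.5%. In WT, 28 were called higher (75.7%, against 40.2% of all genes) and 7 lower (18.9%, against 29.4%), together 94.6% against 69.5%. The median log2 fold change, with genes at 0 fragments in mTEClo taken at their lower bound, was 3.98 over the Hox genes in cHyper and 4.12 in WT, against 0.13 in cHyper and 0.12 in WT over all genes tested. Hox genes near 0 in mTEClo passed the filter on low counts through their mTEChi libraries, so the counts of higher genes are a description. The libraries of the populations did not overlap for 27 Hox genes higher and 8 lower in cHyper (40.3% and 28.4% of all genes), and for 29 higher and 7 lower in WT (41.8% and 31.5%). Taking library totals as the scale moved the median of all genes by 0.17 in cHyper and 0.22 in WT on the log2 scale and turned no Hox call round.

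**Figure D1:**
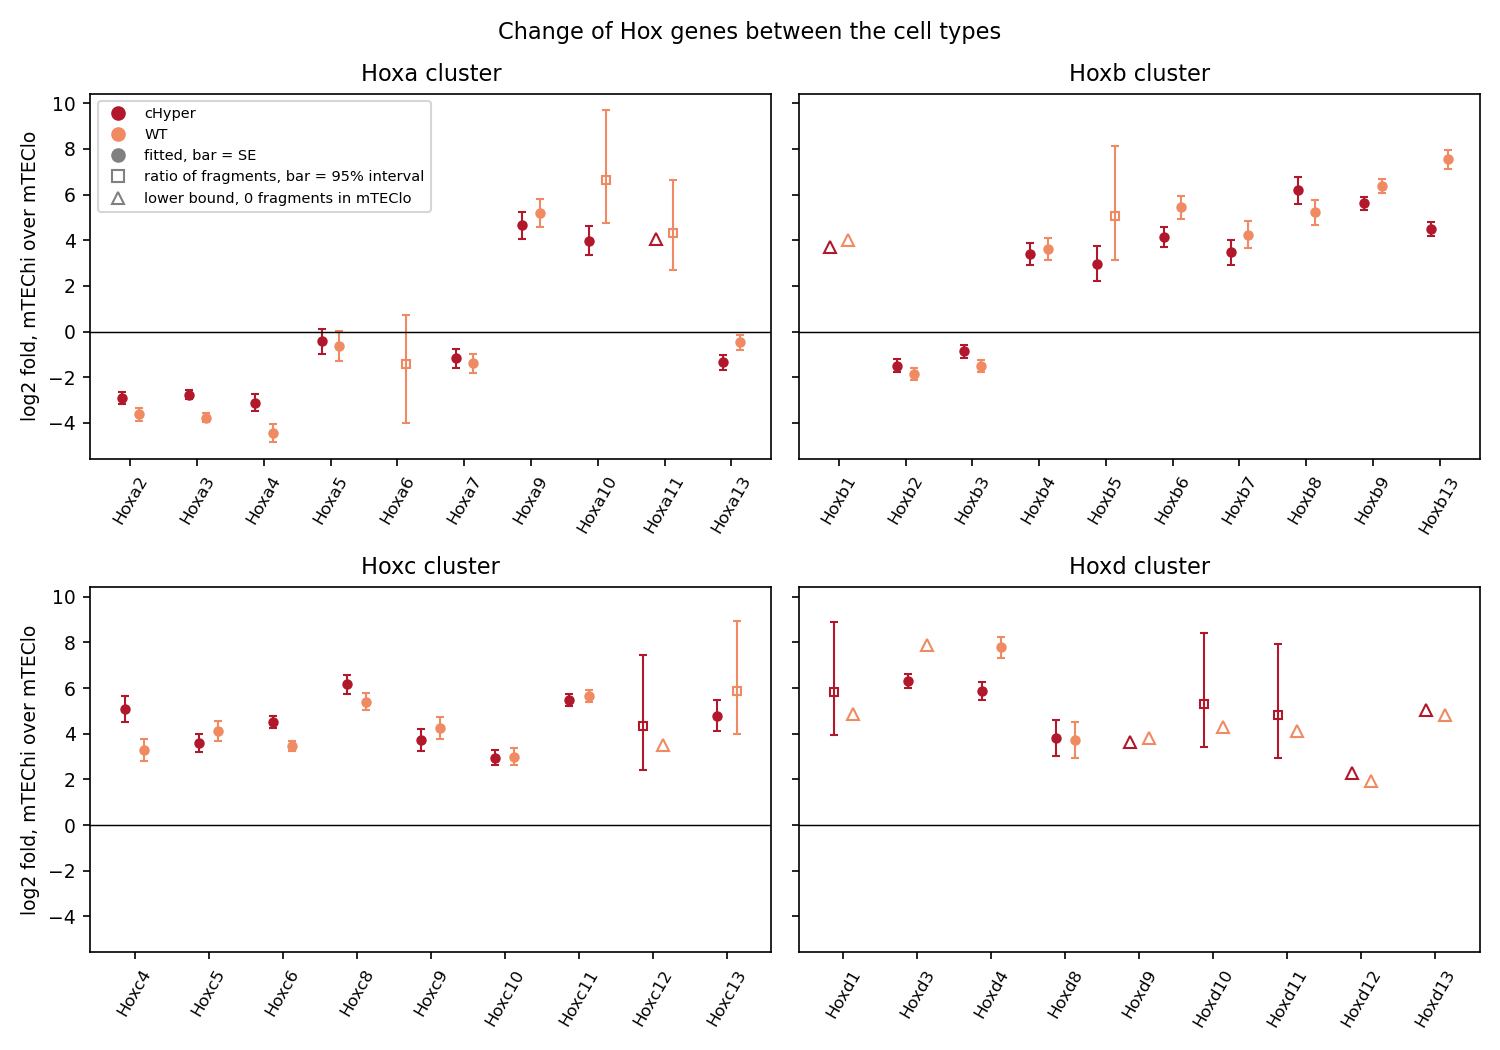
Log2 fold of mTEChi over mTEClo for the Hox genes described, in cHyper (dark red) and WT (orange), 1 panel per cluster with genes by paralog number. Filled circles are fitted values with SE, open squares are ratios of summed fragments with a 95% counting interval, and triangles are lower bounds against 0 fragments; Hoxa6 in cHyper is not drawn. Every plotted Hoxc and Hoxd gene lies above 0, while Hoxa2 to Hoxa4, Hoxa7, Hoxb2 and Hoxb3 lie below it.

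The genes that fell carried most of the Hox signal of mTEClo. Hoxa2 measured 2.37, 2.67 and 4.3 TPM in cHyper mTEChi and 2.57, 2.63 and 1.23 TPM in WT mTEChi, against 22.1, 24.3 and 17.2 TPM in cHyper mTEClo and 22.8, 25.7 and 22.4 TPM in WT mTEClo. Hoxa2, which specifies the second pharyngeal arch, was the highest Hox gene of every mTEClo library, and no mTEChi library reached any of them. It was 7.56-fold lower in cHyper mTEChi (log2 -2.92, SE 0.26, edgeR adjusted p = 2.18e-07) and 12.4-fold lower in WT mTEChi (log2 -3.63, SE 0.27, edgeR adjusted p = 2.31e-08). Hoxa3 had 1.1, 1.18 and 1.56 TPM in cHyper mTEChi and 0.833, 0.672 and 0.615 TPM in WT mTEChi, against 9.75, 7.08 and 6.92 TPM in cHyper mTEClo and 9.13, 8.32 and 8.11 TPM in WT mTEClo. Hoxa3, the thymus organ gene, was the next in mTEClo and fell with no overlap between the populations. It was 6.78-fold lower in cHyper mTEChi (log2 -2.76, SE 0.18, edgeR adjusted p = 7.96e-09) and 13.8-fold lower in WT mTEChi (log2 -3.78, SE 0.19, edgeR adjusted p = 4.62e-10). Its exons share 25.4% of their bases with genes on the opposite strand and 8.0% with one on the same strand, and the strand setting of the counting is not given in the sources used here. Hoxa2 shares 15.0% of its exonic bases with a gene on the same strand.

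Hoxa4 stood at 0.334, 0.196 and 0.342 TPM in cHyper mTEChi and 0.276, 0.0658 and 0.158 TPM in WT mTEChi, against 2.61, 2.23 and 1.97 TPM in cHyper mTEClo and 3.71, 3.07 and 3 TPM in WT mTEClo. Hoxa4, which takes part in forming neck vertebrae, had the largest fall of the cluster by fitted value in both genotypes. It was 8.68-fold lower in cHyper mTEChi (log2 -3.12, SE 0.36, edgeR adjusted p = 3.01e-06) and 22-fold lower in WT mTEChi (log2 -4.46, SE 0.39, edgeR adjusted p = 1.12e-07). Hoxa7 measured 0.352, 0.398 and 0.316 TPM in cHyper mTEChi and 0.191, 0.347 and 0.117 TPM in WT mTEChi, against 1.09, 0.594 and 0.517 TPM in cHyper mTEClo and 0.637, 0.51 and 0.407 TPM in WT mTEClo. Hoxa7, from the middle of the cluster, fell less. It was 2.26-fold lower in cHyper mTEChi (log2 -1.18, SE 0.40, edgeR adjusted p = 0.0193) and 2.63-fold lower in WT mTEChi (log2 -1.40, SE 0.43, edgeR adjusted p = 0.00999). The cHyper call of Hoxa7 ended without cHyper mTEChi replicate 1 (edgeR adjusted p = 0.0587) and without cHyper mTEClo replicate 1 (0.121). Genes on the opposite strand cover 16.0% of the exonic bases of Hoxa4 and 20.4% of those of Hoxa7, so their counts are uncertain too.

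Hoxb2 had 1.02, 0.879 and 1.2 TPM in cHyper mTEChi and 1.36, 1.46 and 0.868 TPM in WT mTEChi, against 3.46, 2.58 and 1.83 TPM in cHyper mTEClo and 3.62, 4.74 and 3.33 TPM in WT mTEClo. Hoxb2, a hindbrain gene, lay higher in every mTEClo library than in any mTEChi library. It was 2.81-fold lower in cHyper mTEChi (log2 -1.49, SE 0.27, edgeR adjusted p = 0.000218) and 3.62-fold lower in WT mTEChi (log2 -1.86, SE 0.27, edgeR adjusted p = 2.04e-05). Hoxb3 was at 2.24, 2.25 and 1.07 TPM in cHyper mTEChi and 2.75, 1.67 and 2.45 TPM in WT mTEChi, against 4.14, 2.66 and 2.61 TPM in cHyper mTEClo and 5.41, 6.3 and 5.14 TPM in WT mTEClo. Hoxb3, which acts together with Hoxa3 in the neck region of mouse embryos, fell in both genotypes. It was 1.83-fold lower in cHyper mTEChi (log2 -0.87, SE 0.27, edgeR adjusted p = 0.01) and 2.83-fold lower in WT mTEChi (log2 -1.50, SE 0.27, edgeR adjusted p = 0.000145). Without cHyper mTEClo replicate 1, the highest library of that group, the cHyper call ended (edgeR adjusted p = 0.0534). Antisense Hoxb3os covers 52.9% of the exonic bases of Hoxb3 and 27.3% of those of Hoxb2, so their counts are uncertain.

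Past Hoxa7 the Hoxa cluster went the other way. Hoxa9 stood at 0.907, 0.745 and 0.342 TPM in cHyper mTEChi and 0.997, 0.95 and 0.965 TPM in WT mTEChi, against 0.0347, 0.0255 and 0 TPM in cHyper mTEClo and 0, 0.035 and 0.035 TPM in WT mTEClo. Hoxa9, a regulator of blood stem and progenitor cells, was near 0 in mTEClo. It was 25.2-fold higher in cHyper mTEChi (log2 4.65, SE 0.60, edgeR adjusted p = 8.23e-06) and 36.9-fold higher in WT mTEChi (log2 5.21, SE 0.61, edgeR adjusted p = 2.55e-06). Hoxa10 measured 1.17, 1.11 and 0.917 TPM in cHyper mTEChi and 1.45, 1.09 and 1.88 TPM in WT mTEChi, against 0.0592, 0 and 0.16 TPM in cHyper mTEClo and 0, 0.0299 and 0 TPM in WT mTEClo. Hoxa10, needed in the uterus, had at most 6 fragments in any mTEClo library. It was 15.8-fold higher in cHyper mTEChi (log2 3.98, SE 0.62, edgeR adjusted p = 5.53e-05) and 100-fold higher in WT mTEChi by summed fragments (95% counting interval 27.4 to 832, edgeR adjusted p = 3.67e-06). Hoxa11 had 0.373, 0.364 and 0.755 TPM in cHyper mTEChi and 0.433, 0.78 and 0.588 TPM in WT mTEChi, against 0 in all 3 libraries of cHyper mTEClo and 0.0458, 0 and 0.0427 TPM in WT mTEClo. Hoxa11, a gene of forearm and lower leg, had 0 fragments in all cHyper mTEClo libraries and 2, 0 and 1 in those of WT. It was at least 16.8-fold higher in cHyper mTEChi (edgeR adjusted p = 0.000107) and 20-fold higher in WT mTEChi by summed fragments (95% counting interval 6.56 to 99.4, edgeR adjusted p = 0.000334); 35.0% of its exonic bases are antisense to Hoxa11os.

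Hoxa5 and Hoxa13 did not follow their neighbours. Hoxa5 was at 0.823, 0.277 and 0.678 TPM in cHyper mTEChi and 0.44, 0.0559 and 0.179 TPM in WT mTEChi, against 0.748, 0.556 and 0.885 TPM in cHyper mTEClo and 0.419, 0.156 and 0.364 TPM in WT mTEClo. Hoxa5, a gene of lung and airway development, overlapped between the populations and was not called. Its log2 fold change was -0.43 in cHyper (SE 0.55, edgeR adjusted p = 0.51) and -0.63 in WT (SE 0.65, edgeR adjusted p = 0.404). Hoxa13 stood at 0.582, 0.61 and 0.478 TPM in cHyper mTEChi and 0.468, 0.828 and 0.612 TPM in WT mTEChi, against 1.69, 0.921 and 1.34 TPM in cHyper mTEClo and 0.763, 0.91 and 0.631 TPM in WT mTEClo. Hoxa13, the last gene of the cluster and a gene of digits and the genital tract, was called lower in cHyper mTEChi alone. It was 2.54-fold lower in cHyper mTEChi (log2 -1.35, SE 0.33, edgeR adjusted p = 0.00226) and was not called in WT (log2 -0.47, SE 0.33, edgeR adjusted p = 0.217), and the difference between these changes did not pass the test (log2 -0.87, SE 0.47, edgeR adjusted p = 0.435). Hoxa6, which was not tested, had 0, 0 and 4 fragments in cHyper mTEChi, 0, 3 and 0 in WT mTEChi, 12, 0 and 0 in cHyper mTEClo and 2, 4 and 1 in WT mTEClo.

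In Hoxb, 8 of 10 genes rose in both genotypes. Hoxb9 measured 10.4, 9.11 and 7.7 TPM in cHyper mTEChi and 15.4, 12.9 and 12 TPM in WT mTEChi, against 0.113, 0.258 and 0.102 TPM in cHyper mTEClo and 0.204, 0.114 and 0.0758 TPM in WT mTEClo. Hoxb9, which patterns the rib cage, was among the highest Hox genes of mTEChi. It was 49-fold higher in cHyper mTEChi (log2 5.62, SE 0.29, edgeR adjusted p = 7.88e-10) and 82.8-fold higher in WT mTEChi (log2 6.37, SE 0.30, edgeR adjusted p = 2.21e-10). Hoxb13 had 11.6, 7.97 and 9.1 TPM in cHyper mTEChi and 14, 11.6 and 11.3 TPM in WT mTEChi, against 0.263, 0.602 and 0.238 TPM in cHyper mTEClo and 0.095, 0.0443 and 0 TPM in WT mTEClo. Hoxb13, the last gene of the cluster and best known from prostate and hindgut, stood at a like level in mTEChi. It was 22.5-fold higher in cHyper mTEChi (log2 4.49, SE 0.32, edgeR adjusted p = 1.64e-08) and 187-fold higher in WT mTEChi (log2 7.55, SE 0.42, edgeR adjusted p = 1.05e-09). Hoxb4 was at 2.89, 1.74 and 1.98 TPM in cHyper mTEChi and 2.15, 2.78 and 2.98 TPM in WT mTEChi, against 0.302, 0.111 and 0.136 TPM in cHyper mTEClo and 0.367, 0.0381 and 0.152 TPM in WT mTEClo. Hoxb4, known for expanding blood stem cells, had 2 to 18 fragments per mTEClo library. It was 10.5-fold higher in cHyper mTEChi (log2 3.40, SE 0.49, edgeR adjusted p = 2.87e-05) and 12.2-fold higher in WT mTEChi (log2 3.61, SE 0.50, edgeR adjusted p = 1.46e-05).

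Hoxb6 stood at 2.88, 3.23 and 2.31 TPM in cHyper mTEChi and 4.2, 3.42 and 3.47 TPM in WT mTEChi, against 0.271, 0.0483 and 0.089 TPM in cHyper mTEClo and 0.08, 0.0996 and 0 TPM in WT mTEClo. Hoxb7 measured 1.48, 1.18 and 1.47 TPM in cHyper mTEChi and 0.998, 1.87 and 1.53 TPM in WT mTEChi, against 0.0627, 0.154 and 0.113 TPM in cHyper mTEClo and 0.136, 0.0317 and 0 TPM in WT mTEClo. Hoxb8 had 2.39, 2.05 and 3.1 TPM in cHyper mTEChi and 3.2, 2.03 and 1.85 TPM in WT mTEChi, against 0, 0.036 and 0.0663 TPM in cHyper mTEClo and 0.0994, 0.0371 and 0 TPM in WT mTEClo. These 3 neighbours are genes of the trunk, and their mTEChi libraries lay above all of their mTEClo libraries. Hoxb6 was 17.8-fold higher in cHyper mTEChi (log2 4.15, SE 0.45, edgeR adjusted p = 1.36e-06) and 43.7-fold higher in WT mTEChi (log2 5.45, SE 0.50, edgeR adjusted p = 1.98e-07). Hoxb7 was 11-fold higher in cHyper mTEChi (log2 3.46, SE 0.55, edgeR adjusted p = 6.19e-05) and 18.9-fold higher in WT mTEChi (log2 4.24, SE 0.60, edgeR adjusted p = 1.79e-05). Hoxb8 was 72.8-fold higher in cHyper mTEChi (log2 6.18, SE 0.58, edgeR adjusted p = 3.06e-07) and 37.3-fold higher in WT mTEChi (log2 5.22, SE 0.54, edgeR adjusted p = 6.38e-07). All were at or below 0.271 TPM in mTEClo. Hoxb5 was at 0.746, 0.597 and 0.391 TPM in cHyper mTEChi and 0.672, 0.508 and 0.423 TPM in WT mTEChi, against 0, 0.0341 and 0.22 TPM in cHyper mTEClo and 0, 0.0351 and 0 TPM in WT mTEClo. Hoxb5, a gene of the enteric nervous system, was the lowest of the trunk genes in mTEChi. It was 7.83-fold higher in cHyper mTEChi (log2 2.97, SE 0.76, edgeR adjusted p = 0.00322) and 33.1-fold higher in WT mTEChi by summed fragments (95% counting interval 8.85 to 278, edgeR adjusted p = 0.000471). Hoxb1 stood at 0.436, 0.291 and 0.313 TPM in cHyper mTEChi and 0.854, 0.203 and 0.326 TPM in WT mTEChi, against 0 in every mTEClo library. Hoxb1, which marks a single segment of the hindbrain, had no fragment in any of the 6 mTEClo libraries. It was at least 13.2-fold higher in cHyper mTEChi (edgeR adjusted p = 0.000706) and at least 15.9-fold higher in WT mTEChi (edgeR adjusted p = 4e-04).

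All 9 Hoxc genes rose in both genotypes. Hoxc11 measured 28.5, 27.5 and 19.9 TPM in cHyper mTEChi and 17.7, 21.1 and 16 TPM in WT mTEChi, against 0.527, 0.446 and 0.605 TPM in cHyper mTEClo and 0.207, 0.46 and 0.241 TPM in WT mTEClo. Hoxc11, a hindlimb gene, was the highest Hox gene of mTEChi in both genotypes, and its lowest mTEChi library stood above the highest library of any other Hox gene of its own group. It was 44.6-fold higher in cHyper mTEChi (log2 5.48, SE 0.24, edgeR adjusted p = 3.03e-10) and 50.2-fold higher in WT mTEChi (log2 5.65, SE 0.26, edgeR adjusted p = 2.09e-10). Hoxc10 had 6.08, 3.7 and 3.62 TPM in cHyper mTEChi and 4.04, 4.45 and 3 TPM in WT mTEChi, against 0.431, 0.398 and 0.824 TPM in cHyper mTEClo and 0.302, 0.358 and 0.664 TPM in WT mTEClo. Hoxc10, a gene of the lumbar spinal cord and hindlimb, had the highest mean mTEClo level of the cluster in both genotypes. It was 7.76-fold higher in cHyper mTEChi (log2 2.96, SE 0.34, edgeR adjusted p = 2.95e-06) and 8.01-fold higher in WT mTEChi (log2 3.002, SE 0.36, edgeR adjusted p = 3.15e-06). Hoxc6 was at 5.97, 5.81 and 5.36 TPM in cHyper mTEChi and 5.03, 4.58 and 5.1 TPM in WT mTEChi, against 0.302, 0.158 and 0.218 TPM in cHyper mTEClo and 0.435, 0.386 and 0.324 TPM in WT mTEClo. Hoxc6, a gene of the chest region, was next in the cluster after Hoxc11 in every mTEChi group mean. It was 22.9-fold higher in cHyper mTEChi (log2 4.52, SE 0.25, edgeR adjusted p = 1.48e-09) and 11-fold higher in WT mTEChi (log2 3.46, SE 0.23, edgeR adjusted p = 7.01e-09).

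Hoxc8 stood at 3.73, 3.78 and 2.57 TPM in cHyper mTEChi and 3.62, 2.74 and 3.42 TPM in WT mTEChi, against 0.0171, 0.0335 and 0.0926 TPM in cHyper mTEClo and 0.074, 0.0345 and 0.103 TPM in WT mTEClo. Hoxc9 measured 2.21, 1.95 and 2.51 TPM in cHyper mTEChi and 2.99, 2.66 and 2.94 TPM in WT mTEChi, against 0.0797, 0.293 and 0.036 TPM in cHyper mTEClo and 0.216, 0.101 and 0.0401 TPM in WT mTEClo. Hoxc8 and Hoxc9 set the identity of spinal motor neurons of the forelimb and chest levels, and both stayed under 0.3 TPM in mTEClo. Hoxc8 was 71.9-fold higher in cHyper mTEChi (log2 6.17, SE 0.41, edgeR adjusted p = 8.85e-09) and 42.5-fold higher in WT mTEChi (log2 5.41, SE 0.39, edgeR adjusted p = 1.4e-08). Hoxc9 was 13.2-fold higher in cHyper mTEChi (log2 3.73, SE 0.47, edgeR adjusted p = 6.34e-06) and 19-fold higher in WT mTEChi (log2 4.25, SE 0.48, edgeR adjusted p = 1.84e-06). Hoxc4 had 2.2, 2.04 and 2.44 TPM in cHyper mTEChi and 2.59, 2.68 and 2.72 TPM in WT mTEChi, against 0.0377, 0.111 and 0 TPM in cHyper mTEClo and 0.122, 0.152 and 0.532 TPM in WT mTEClo. Hoxc5 was at 1.4, 1.09 and 1.15 TPM in cHyper mTEChi and 1.16, 1.48 and 0.98 TPM in WT mTEChi, against 0.0941, 0.123 and 0.0283 TPM in cHyper mTEClo and 0.0848, 0.0316 and 0.0632 TPM in WT mTEClo. These genes of the neck and upper chest were above 0.9 TPM in every mTEChi library. Hoxc4 was 33.8-fold higher in cHyper mTEChi (log2 5.08, SE 0.57, edgeR adjusted p = 1.92e-06) and 9.78-fold higher in WT mTEChi (log2 3.29, SE 0.47, edgeR adjusted p = 1.93e-05). Hoxc5 was 12.2-fold higher in cHyper mTEChi (log2 3.60, SE 0.40, edgeR adjusted p = 2.07e-06) and 17.4-fold higher in WT mTEChi (log2 4.12, SE 0.44, edgeR adjusted p = 9.74e-07). Hoxc13 stood at 1.41, 0.993 and 0.554 TPM in cHyper mTEChi and 1.5, 0.661 and 1.23 TPM in WT mTEChi, against 0.0394, 0.0386 and 0 TPM in cHyper mTEClo and 0, 0.0397 and 0 TPM in WT mTEClo. Hoxc13, which controls hair and nail keratins, was near 0 in mTEClo. It was 27.6-fold higher in cHyper mTEChi (log2 4.79, SE 0.68, edgeR adjusted p = 2.18e-05) and 59.1-fold higher in WT mTEChi by summed fragments (95% counting interval 16 to 493, edgeR adjusted p = 9.36e-06). Hoxc12 measured 0.982, 0.656 and 0.793 TPM in cHyper mTEChi and 0.908, 0.763 and 0.571 TPM in WT mTEChi, against 0.094, 0 and 0 TPM in cHyper mTEClo and 0 in all 3 libraries of WT mTEClo. Its neighbour Hoxc12 had 2 fragments in 1 mTEClo library and none in the others. It was 20.2-fold higher in cHyper mTEChi by summed fragments (95% counting interval 5.26 to 173, edgeR adjusted p = 0.000553) and at least 11.5-fold higher in WT mTEChi (edgeR adjusted p = 0.000177).

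Hoxd had the fewest fragments of the clusters in mTEClo. Summed over its 9 genes, the libraries held 1055, 980 and 485 fragments in cHyper mTEChi and 948, 772 and 604 in WT mTEChi, against 14, 12 and 15 in cHyper mTEClo and 6, 0 and 4 in WT mTEClo. Hoxd4 had 8.15, 8.2 and 7.64 TPM in cHyper mTEChi and 7.54, 5.8 and 8.9 TPM in WT mTEChi, against 0.0986, 0.0966 and 0.207 TPM in cHyper mTEClo and 0.0711, 0 and 0 TPM in WT mTEClo. Hoxd4, a gene of the neck vertebrae, led the cluster in mTEChi. It was 58.4-fold higher in cHyper mTEChi (log2 5.87, SE 0.38, edgeR adjusted p = 6.78e-09) and 221-fold higher in WT mTEChi (log2 7.79, SE 0.47, edgeR adjusted p = 2.46e-09). Hoxd3 was at 4.72, 4.02 and 3.47 TPM in cHyper mTEChi and 4.19, 3.82 and 3.51 TPM in WT mTEChi, against 0.0231, 0.0453 and 0.0834 TPM in cHyper mTEClo and 0 in all 3 libraries of WT mTEClo. Hoxd3, which shapes the first neck vertebra together with Hoxa3, had no fragment in any WT mTEClo library. It was 79-fold higher in cHyper mTEChi (log2 6.30, SE 0.32, edgeR adjusted p = 3.37e-09) and at least 235-fold higher in WT mTEChi (edgeR adjusted p = 1.22e-09). Hoxd3 and Hoxd4 share exons on one strand (62.3% and 52.3% of their exonic bases, with each other and the predicted gene Gm28230). Whether reads in the shared bases were left out or given to either gene is not known here, so the levels of both are uncertain.

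Hoxd1 stood at 1.43, 1.09 and 1.27 TPM in cHyper mTEChi and 1.57, 0.704 and 0.994 TPM in WT mTEChi, against 0, 0.051 and 0 TPM in cHyper mTEClo and 0 in all 3 libraries of WT mTEClo. Hoxd1, which in mice acts in pain-sensing neurons, was close to 0 in mTEClo. It was 56.8-fold higher in cHyper mTEChi by summed fragments (95% counting interval 15.4 to 474, edgeR adjusted p = 1.68e-05) and at least 29.4-fold higher in WT mTEChi (edgeR adjusted p = 1.14e-05). Hoxd8 measured 1.11, 0.455 and 0.464 TPM in cHyper mTEChi and 0.883, 0.707 and 0.613 TPM in WT mTEChi, against 0.0706, 0 and 0.0637 TPM in cHyper mTEClo and 0.0382, 0 and 0.142 TPM in WT mTEClo. Hoxd8, a gene of the trunk, had at most 4 fragments in any mTEClo library. It was 14.1-fold higher in cHyper mTEChi (log2 3.81, SE 0.78, edgeR adjusted p = 0.000585) and 13.2-fold higher in WT mTEChi (log2 3.72, SE 0.78, edgeR adjusted p = 0.00063). Hoxd9 had 0.574, 0.365 and 0 TPM in cHyper mTEChi and 0.49, 0.393 and 0.512 TPM in WT mTEChi, against 0 in every mTEClo library. One cHyper mTEChi library of Hoxd9 held 0 fragments, so that its cHyper groups overlapped. It was at least 12.5-fold higher in cHyper mTEChi (edgeR adjusted p = 0.00393) and at least 14.1-fold higher in WT mTEChi (edgeR adjusted p = 0.0022). Hoxd10 was at 1.09, 0.802 and 0.801 TPM in cHyper mTEChi and 1, 0.433 and 0.88 TPM in WT mTEChi, against 0, 0 and 0.0962 TPM in cHyper mTEClo and 0 in all 3 libraries of WT mTEClo. Hoxd11 stood at 0.228, 0.37 and 0.216 TPM in cHyper mTEChi and 0.353, 0.212 and 0.3 TPM in WT mTEChi, against 0.023, 0 and 0 TPM in cHyper mTEClo and 0 in all 3 libraries of WT mTEClo. Hoxd13 measured 0.944, 0.921 and 0.403 TPM in cHyper mTEChi and 0.887, 0.613 and 0.881 TPM in WT mTEChi, against 0 in every mTEClo library. These 3 genes pattern limbs and digits in the embryo, and their mTEChi libraries all lay above the mTEClo ones. Hoxd10 was 40-fold higher in cHyper mTEChi by summed fragments (95% counting interval 10.7 to 336, edgeR adjusted p = 0.000162) and at least 19.7-fold higher in WT mTEChi (edgeR adjusted p = 9.04e-05). Hoxd11 was 28.6-fold higher in cHyper mTEChi by summed fragments (95% counting interval 7.58 to 242, edgeR adjusted p = 0.000222) and at least 17.4-fold higher in WT mTEChi (edgeR adjusted p = 6.65e-05). Hoxd13 was at least 32.6-fold higher in cHyper mTEChi (edgeR adjusted p = 2.51e-05) and at least 27.9-fold higher in WT mTEChi (edgeR adjusted p = 2.54e-05). Hoxd12, which was not tested, had 4, 11 and 0 fragments in cHyper mTEChi and 9, 2 and 2 in WT mTEChi, and none in mTEClo, which puts it at least 4.94-fold higher in cHyper mTEChi and at least 3.82-fold higher in WT mTEChi. Without the filter on low counts it was called higher in both (edgeR adjusted p = 0.0187 in cHyper and 0.026 in WT).

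Paralogs of one number did not always move together. Hoxb1 and Hoxd1 rose, both genes of number 2 fell, and of the 3 of number 3 Hoxa3 and Hoxb3 fell and Hoxd3 rose. Among the 4 of number 4 Hoxa4 alone fell. From number 8 to number 12 every tested gene rose in both genotypes. Paralogs 2 and 3 together thus held most of the mTEClo signal: number 2 took 53.8 ± 5.14% of the summed Hox TPM in cHyper mTEClo and 54.1 ± 2.4% in WT mTEClo, and number 3 took 27.7, 21.7 and 25.6% in the cHyper mTEClo libraries and 28.6, 27.2 and 27.8% in those of WT mTEClo (SD, n = 3 for number 2). By CPM, which does not divide by gene length, the order turned round: number 2 took 36.7 ± 4.63% in cHyper mTEClo and 37.1 ± 2.35% in WT mTEClo, and number 3 took 47.7 ± 3.72% in cHyper mTEClo and 50.3 ± 1.25% in WT mTEClo. In cHyper mTEChi the largest share by TPM fell to number 11, with 25.3 ± 2.63% (SD, n = 3). In WT mTEChi number 11 (18.8 ± 2.83%) overlapped with number 9 (17.3 ± 0.649%), and by CPM number 9 took 18.6 ± 0.574% and number 11 15.4 ± 2.44%.

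The clusters exchanged places between the populations. Hoxa gave 8.62 ± 2.14% of the summed Hox TPM in cHyper mTEChi and 7.27 ± 0.633% in WT mTEChi, against 80.1 ± 1.29% in cHyper mTEClo and 76.8 ± 0.862% in WT mTEClo (SD, n = 3). Hoxc gave 45.0 ± 2.44% and 38.1 ± 2.62% in cHyper and WT mTEChi, against 3.86 ± 0.836% and 3.29 ± 0.724% in cHyper and WT mTEClo. Hoxb was present in both populations, at 30.5 ± 1.3% and 39.5 ± 1.67% in cHyper and WT mTEChi, against 15.3 ± 1.57% and 19.7 ± 1.53% in cHyper and WT mTEClo. The sum over all 39 genes was 103 ± 11.6 TPM in cHyper mTEChi and 102 ± 7.14 TPM in WT mTEChi, against 44.3 ± 6.42 TPM in cHyper mTEClo and 50.8 ± 3.02 TPM in WT mTEClo. No test was run on these sums.

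**Figure D2:**
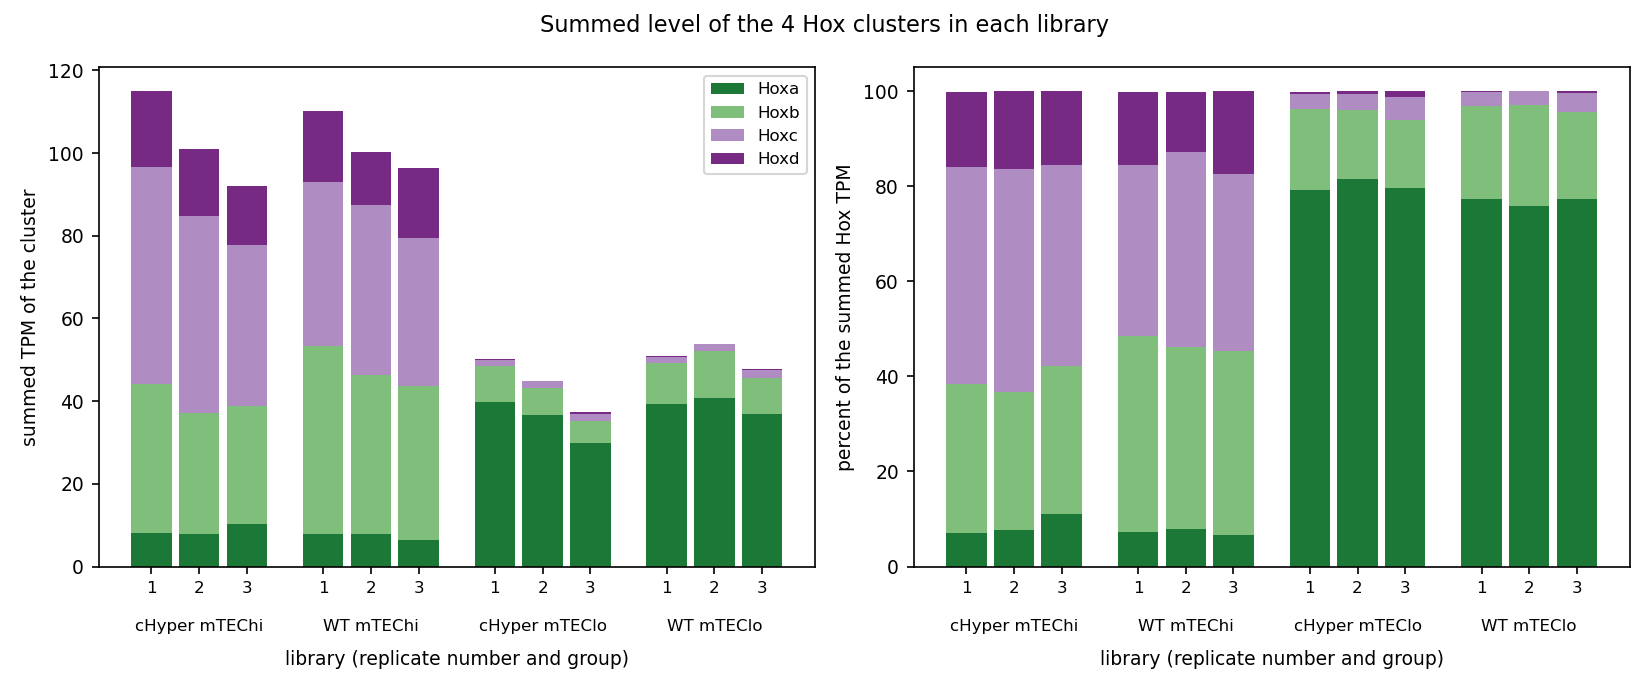
Stacked bars of summed TPM of the Hoxa, Hoxb, Hoxc and Hoxd genes in each of the 12 libraries (left) and their percent of the library's summed Hox TPM (right). Hoxa takes 75.8 to 81.6% in the mTEClo libraries and 6.71 to 11.1% in the mTEChi libraries.

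In the order of levels, Hoxc11 stood first in mTEChi of both genotypes (25.3 ± 4.71 TPM in cHyper and 18.3 ± 2.59 TPM in WT) and did not overlap with the next gene. Hoxb13, Hoxb9 and Hoxd4 followed in cHyper, each overlapping with its neighbour, at 9.55 ± 1.86, 9.06 ± 1.34 and 8.0 ± 0.308 TPM. The same 3 genes followed in WT, where Hoxb9 (13.4 ± 1.78 TPM) overlapped with Hoxb13 (12.3 ± 1.45 TPM) and Hoxd4 stood apart at 7.42 ± 1.55 TPM. In mTEClo of both genotypes Hoxa2 came first and Hoxa3 next, with no overlap between them. A mean of at least 1 TPM was reached by 21 Hox genes in each mTEChi group and by 6 in each mTEClo group.

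At a common depth more Hox genes were still detected in mTEChi. Thinned to the 22.02 M fragments of the smallest library, 37.6 ± 0.551 of 39 Hox genes had at least 1 fragment in cHyper mTEChi and 38.1 ± 0.115 in WT mTEChi, against 26.6 ± 0.702 in cHyper mTEClo and 23.5 ± 1.39 in WT mTEClo (expected numbers, SD, n = 3). At a minimum of 10 fragments the numbers were 31.1 and 30.6 in cHyper and WT mTEChi, against 10.4 and 9.28 in cHyper and WT mTEClo. A gene at 0 fragments over a mTEClo group was below 3 fragments in that group's total, which is the limit of what these depths can show.

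Markers of other cells moved between the populations too. Summed levels of 11 myeloid and dendritic markers were 517 to 575 CPM in cHyper mTEChi and 524 to 699 CPM in WT mTEChi, against 33.3 to 53.9 CPM in cHyper mTEClo and 36.3 to 44.8 CPM in WT mTEClo. Those of 7 blood progenitor markers, which share Flt3 with that list, were 239 to 282 and 238 to 269 CPM in cHyper and WT mTEChi, against 67.4 to 75.4 and 53.7 to 70.7 CPM in cHyper and WT mTEClo. Sums of B cell, endothelial, erythroid and thymocyte markers were also higher in each mTEChi library than in any mTEClo library. The fibroblast sum overlapped (164 to 267 against 157 to 233 CPM), and the pericyte and smooth muscle sum was lower (859 to 1800 against 2190 to 3040 CPM). Of the 6 markers in that last sum, 2 were called higher and 3 lower in cHyper mTEChi, and 2 higher and 4 lower in WT. Of all genes, 38.7% were higher and 25.8% lower in cHyper, and 40.2% and 29.4% in WT. No list had a marker at 0 in a whole group. Their part in the Hox result was not tested.

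In mTEClo, low counts limited what the genotype comparison could call. With the compared groups alone 13 Hox genes passed the filter, against 37 with all groups. Of 37 tested, 2 were called higher (5.41%, against 4.53% of all genes tested) and none lower (4.64% of all genes). For either direction this is 5.41% against 9.16%. Both called genes were among those that rise in mTEChi and were nearly silent in WT mTEClo. Hoxb13 had 12, 28 and 6 fragments in cHyper mTEClo and 4, 2 and 0 in WT mTEClo, so the genotypes did not overlap. It was 6.91-fold higher (log2 2.79, SE 0.56, edgeR adjusted p = 0.0057), and fitting the compared groups alone ended the call (0.0587). Hoxd3 had 2, 4 and 4 fragments in cHyper mTEClo and 0 in each WT mTEClo library, at least 3.19-fold higher over the groups (edgeR adjusted p = 0.0119). That call ended with replicates 1 and 2 only (edgeR adjusted p = 0.0645). Hoxd3 passed the filter on low counts through its mTEChi libraries, and with the compared groups alone it was not among the 13 Hox genes tested. Both rest on at most 28 fragments per library.

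Hoxb3 was the Hox gene closest to a call in the other direction. It had 363, 238 and 127 fragments in cHyper mTEClo and 439, 548 and 224 in WT mTEClo, which on the CPM scale did not overlap. The log2 fold change of -0.82 (SE 0.26) missed the threshold (edgeR adjusted p = 0.0631), but it passed with the replicate number as a block (log2 -0.85, edgeR adjusted p = 0.0359) and with DESeq2 (adjusted p = 0.0176). Hoxa2 and Hoxa3, the leading genes of mTEClo, gave log2 fold changes of -0.13 (SE 0.23, edgeR adjusted p = 0.803) and -0.09 (SE 0.16, edgeR adjusted p = 0.822). Over the 25 tested Hox genes with more than 3 fragments in each mTEClo group, the median was 0.11, with 14 above and 11 below 0, against 0.018 over all genes with a fragment. No overlap between genotypes was seen for 5 Hox genes higher and 5 lower (11.8% and 12.6% of all genes tested).

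Among mTEC markers, a gene of mTEChi moved beside Hoxb13 and Hoxd3; of the 8 tested Hoxd genes no other was called. Aire stood at 38.6, 51.4 and 43.6 CPM in cHyper mTEClo and 11.3, 16.2 and 15.4 CPM in WT mTEClo (log2 1.64, edgeR adjusted p = 2.39e-05), and Cd80 went the other way (log2 -1.02, edgeR adjusted p = 0.0055). These were the only called genes of 11 mTEC markers in that comparison. Summed over the 28 Hox genes that rose in mTEChi, cHyper mTEClo libraries held 3.2, 3.45 and 3.66 CPM and WT mTEClo libraries 2.74, 2.22 and 2.77 CPM, a set chosen on the same libraries and so given with no test. Whether the markers took part in the Hox result was not tested.

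In mTEChi the genotype comparison called 1 Hox gene (2.7%, against 1.98% of all genes tested). Hoxa3 had 1.1, 1.18 and 1.56 TPM in cHyper mTEChi and 0.833, 0.672 and 0.615 TPM in WT mTEChi, with no overlap. It was 1.91-fold higher (log2 0.94, SE 0.19, edgeR adjusted p = 0.0201). The call ended with limma-voom (adjusted p = 0.1), with replicates 1 and 2 only (0.185), without cHyper mTEChi replicate 2 or 3 (0.0551 and 0.0899) and without WT mTEChi replicate 2 or 3 (0.0938 and 0.0871). Of 11 mTEC markers 3 were also higher in cHyper mTEChi, and all 3 are, like Hoxa3, higher in mTEClo: Krt14 (log2 1.17), Krt5 (log2 0.97), both basal keratins, and the chemokine gene Ccl21a (log2 1.04). As a sum, the 6 pericyte and smooth muscle markers were also higher in mTEClo, though 2 of them were called higher in mTEChi in each genotype. That sum was 1380 to 1800 CPM in cHyper mTEChi and 859 to 1150 CPM in WT mTEChi. Of the 6, 1 was called higher in cHyper, Rgs5 (log2 0.88, edgeR adjusted p = 0.0279), and their median log2 fold change was 0.156. The part of these markers in the Hoxa3 result was not tested. Over the 37 genes the median was 0.04, with 19 above and 18 below 0, and 4 higher and 2 lower showed no overlap (12.5% and 13.3% of all genes tested).

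**Figure D3:**
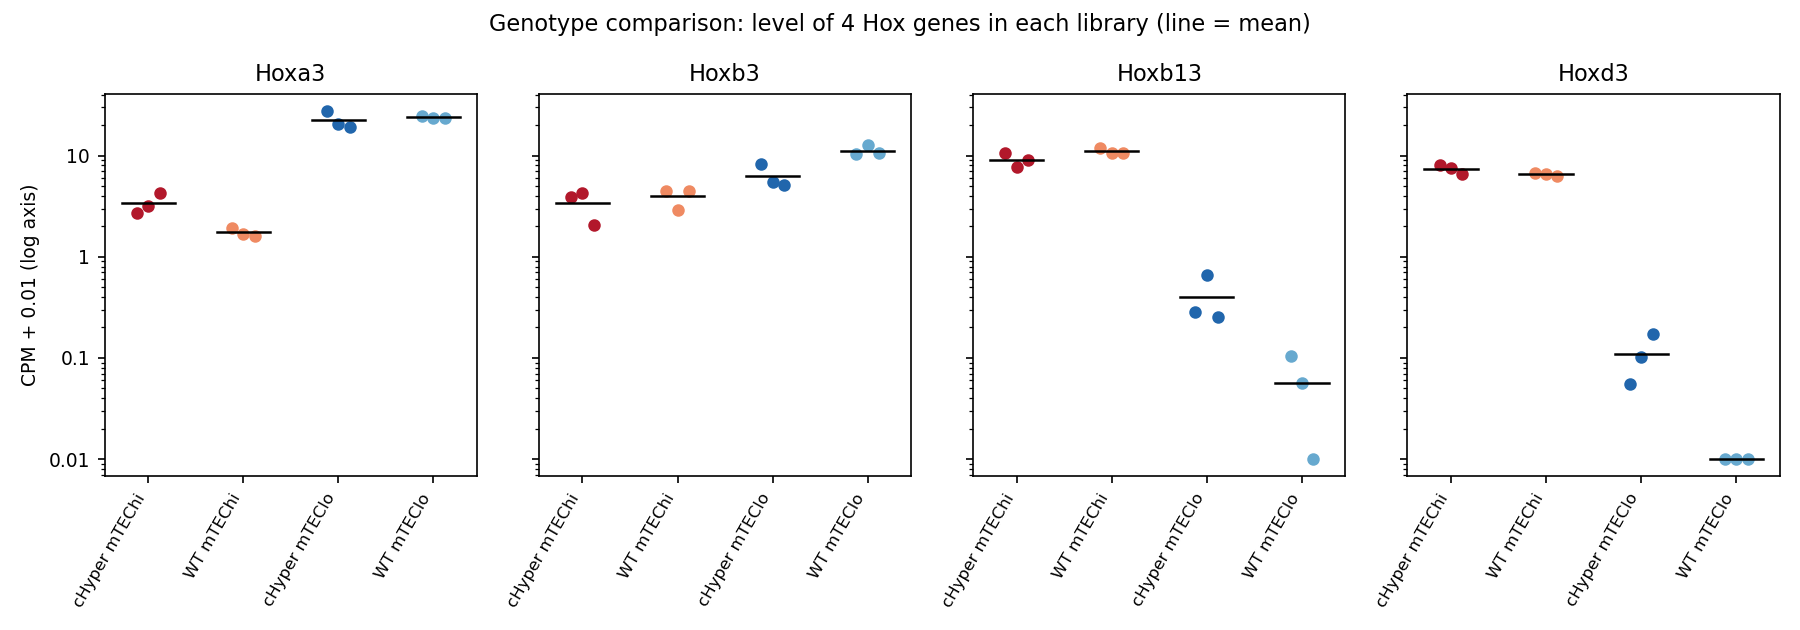
CPM plus 0.01 of Hoxa3, Hoxb3, Hoxb13 and Hoxd3 in each library on a log axis, 1 point per library and a line at the group mean. Hoxa3 lies higher in cHyper than in WT mTEChi, and Hoxb13 and Hoxd3 lie higher in cHyper than in WT mTEClo, where Hoxd3 is at 0 in WT.

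The difference between the genotype effects of mTEChi and mTEClo was tested in the same fit. It passed for 2 of 37 Hox genes (5.41%, against 2.06% of all genes tested and 0.926% in the negative direction, that of both), Hoxb13 (log2 -3.06, SE 0.62, edgeR adjusted p = 0.0186) and Hoxd3 (edgeR adjusted p = 0.0478), whose genotype effects were more positive in mTEClo. With the replicate block the Hoxd3 call ended (edgeR adjusted p = 0.0594). For Hoxa3 the difference of 1.02 on the log2 scale missed the threshold (edgeR adjusted p = 0.0539) and passed with the block (0.0407). The Hoxd3 call ended in 15 of 19 alternatives (adjusted p 0.0511 to 0.19), and that of Hoxb13 in 3 (0.0545 to 0.0784): with replicates 1 and 2 only, without cHyper mTEClo replicate 2 and without WT mTEClo replicate 2.

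Noncoding RNAs of the clusters were called in both directions. Of 11 tested, 6 were higher and 4 lower in mTEChi in each genotype, where 64.5% of all genes were called in cHyper and 69.5% in WT. Hoxaas2, antisense beside Hoxa2 and Hoxa3, stood at 0.855, 1.38 and 1.4 CPM in cHyper mTEChi and 0.827, 1.3 and 0.865 CPM in WT mTEChi, against 15.8, 12.6 and 10.3 CPM in cHyper mTEClo and 15.6, 13.2 and 15 CPM in WT mTEClo. Hotairm1, a noncoding RNA of Hoxa, fell as well (log2 -3.46 in cHyper and -3.60 in WT). Hotair, which lies in Hoxc and is known for binding Polycomb proteins, stood at 6.01, 5.53 and 3 CPM in cHyper mTEChi and 3.6, 4.54 and 3.6 CPM in WT mTEChi, against 0.0457, 0.046 and 0.163 CPM in cHyper mTEClo and 0.0236, 0 and 0 CPM in WT mTEClo. Gm53, between Hoxb9 and Hoxb13, rose too, and was the only one called between genotypes in mTEClo, where it had 1 fragment in cHyper and 15 in WT (edgeR adjusted p = 0.00692). Its mTEChi libraries, with 594 fragments in cHyper and 949 in WT, carried it past the filter on low counts. Genes sharing reads with an antisense partner cannot be told from it where counting ignored strand.

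**Figure D4:**
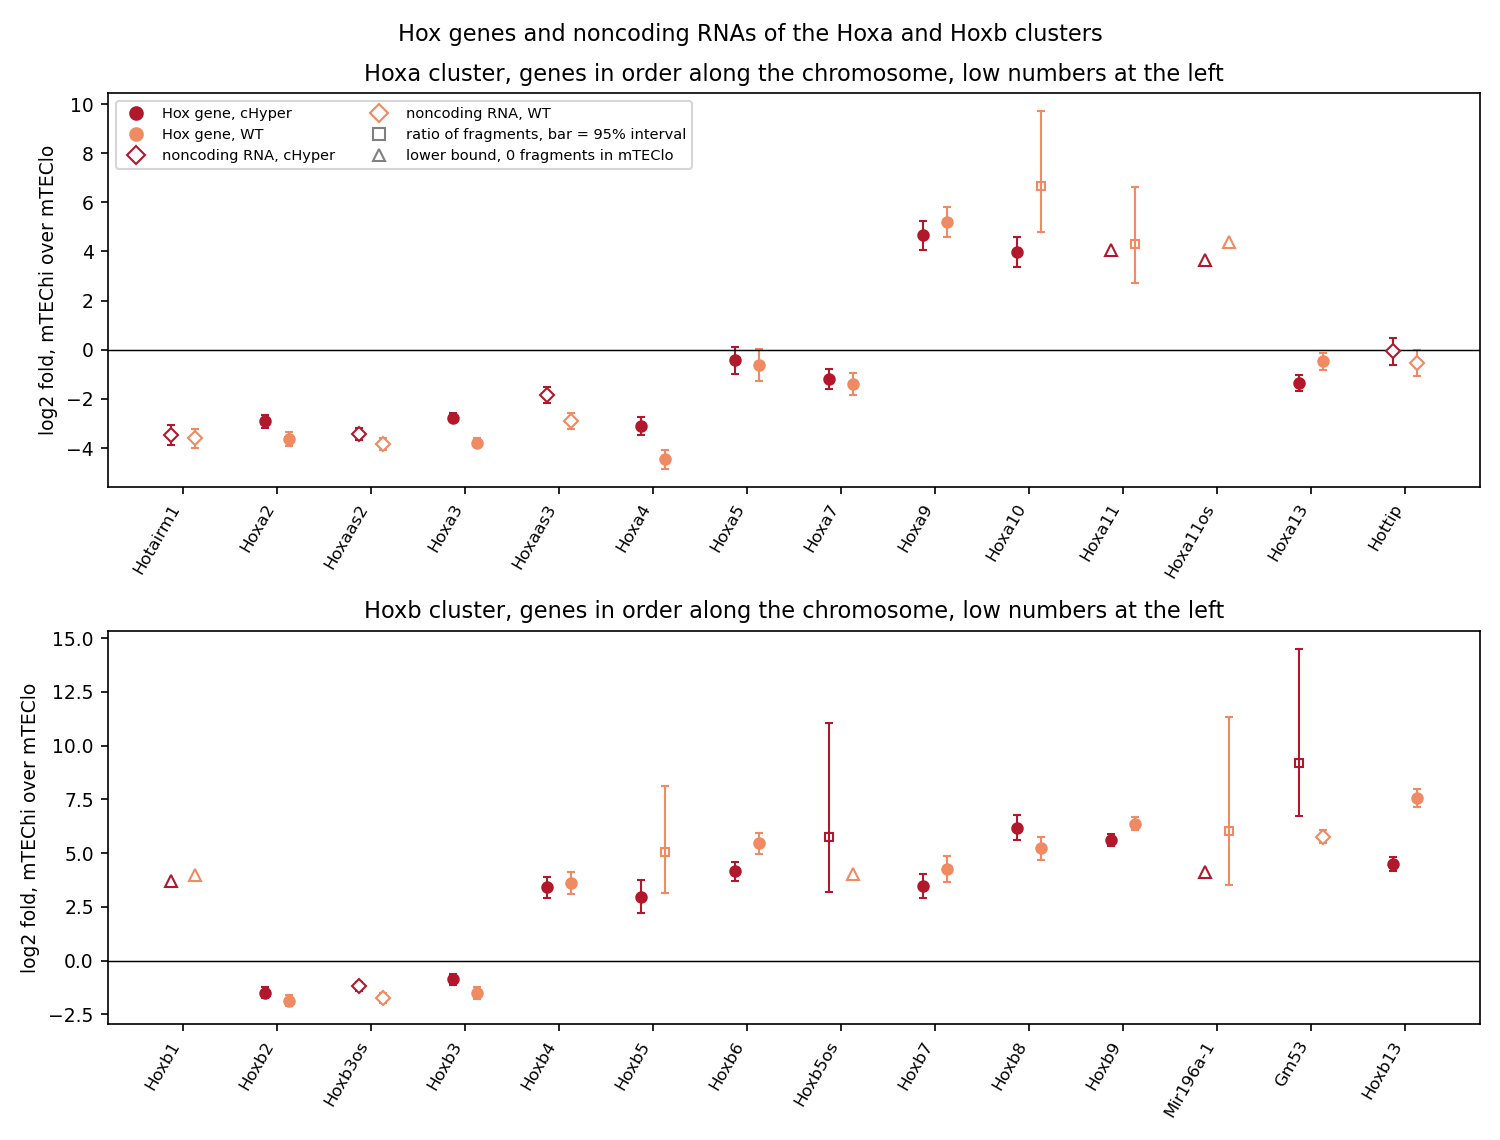
Log2 fold of mTEChi over mTEClo for tested Hox genes and noncoding RNAs of the Hoxa (top) and Hoxb (bottom) clusters in their order along the chromosome. Circles are Hox genes and diamonds noncoding RNAs with SE, squares are ratios of fragments with a 95% counting interval and triangles are lower bounds; Hotairm1, Hoxaas2, Hoxaas3 and Hoxb3os lie below 0 with the Hox genes beside them.

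Genes that work with the Hox proteins were also measured. The TALE proteins Pbx and Meis bind DNA together with Hox proteins, and of 10 such genes 2 were higher and 7 lower in cHyper mTEChi than in cHyper mTEClo, and 1 higher and 8 lower in WT. For these and the other lists, the shares of all genes tested were 38.7% higher and 25.8% lower in cHyper (64.5% in all), and 40.2% higher and 29.4% lower in WT (69.5% in all). Meis1 fell to 28.6, 35.2 and 32.3 CPM in cHyper mTEChi, against 137, 128 and 93.9 CPM in cHyper mTEClo (log2 -1.90), and by 2.32 on the log2 scale in WT. Pbx4 rose in both (log2 2.64 in cHyper and 3.54 in WT). In mTEClo, Meis3 (log2 -0.998, edgeR adjusted p = 0.000343) and Tgif1 (log2 -0.60, edgeR adjusted p = 0.00501) were lower in cHyper. Of 7 tested ParaHox, Cdx and Evx genes, the homeobox relatives of the clusters, all 7 rose in mTEChi in both genotypes. Apart from Cdx1 and Cdx2, they held at most 7 fragments over a mTEClo group. Such genes passed the filter on low counts through their mTEChi libraries, so the count is a description. Cdx1, which activates Hox genes in the mouse embryo, reached 254, 275 and 271 CPM in cHyper mTEChi and 267, 300 and 336 CPM in WT mTEChi, against 9.85, 16.3 and 19.7 CPM in cHyper mTEClo and 9, 13.3 and 15 CPM in WT mTEClo.

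Other regulators moved less uniformly. Of 10 genes of the pharyngeal pouch and thymus organ, which work beside Hoxa3, 3 were higher and 6 lower in mTEChi in both genotypes; Pax1 fell by 2.07 and Eya1 by 1.88 on the log2 scale in cHyper, and Pax1 fell by 1.93 and Eya1 by 2.28 in WT. Of 15 Polycomb genes, which repress Hox clusters, 2 were higher and 8 lower in cHyper and 3 and 8 in WT, with Pcgf2 lower by log2 -2.72 in cHyper and -2.63 in WT, and Ezh2 higher (log2 0.84 in cHyper and 0.86 in WT). Of 9 activator and trithorax genes none was higher and 6 were lower in cHyper, and 1 and 6 in WT, with Men1 at log2 -0.76 in cHyper and -0.93 in WT. Of 17 retinoic acid genes 10 were higher and 4 lower in cHyper and 10 and 5 in WT. Crabp1, a retinoic acid binding protein gene, rose by log2 6.34 in cHyper and 7.96 in WT. Of 17 tested genes flanking the clusters 5 were higher and 7 lower in cHyper, and 6 and 7 in WT.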

How the data were processed

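Bulk RNA-seq libraries of sorted medullary thymic epithelial cells were made with a stranded mRNA kit and sequenced in pairs, per the labels' protocols. The tools named are featureCounts (Subread 2.0.1), TopHat2 2.1.1 and SAMtools 1.9, with build mm10, per the submitters' processing notes; no source used here gives the annotation release or the strand setting. The authors deposited 1 table with raw fragment counts and TPM values per gene for 12 libraries, in which replicates 1 and 2 combine 2 sequencing runs each (20 samples in all). Deposited TPM of Hox genes could be recomputed from the counts and gene lengths within 0.000126 TPM. CPM was computed from the deposited counts with TMM-scaled library sizes.

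Counts were tested with edgeR 4.0.16 (R 4.3.3) by the quasi-likelihood F test on group means over all 12 libraries (8 residual degrees of freedom), after filterByExpr and TMM scaling, with Benjamini-Hochberg adjustment over 28932 genes. The threshold was an adjusted p of 0.05. A fold against a group with 0 fragments puts a floor of 3 fragments over that group in place of 0, and is called a lower bound. It takes the count of the other group as exact, so that group's counting error is left out. A fold against 1 to 3 fragments is a ratio of summed fragments with an exact 95% interval, which covers counting error only. Alternatives were other scalings, no filter, DESeq2 1.42.0, limma-voom (limma 3.58.1), the compared groups alone, a replicate block, replicates 1 and 2 only, and leaving out each library. Same-numbered libraries deviated together in every comparison (correlations of deviations from group means of 0.195 to 0.42), so the numbers were taken to pair them. The labels do not say why. They do show that replicates 1 and 2 of every group combine 2 sequencing runs and that replicate 3 does not. Whether this took part in the shared deviations was not tested. The main fit leaves this pairing out, and only the replicate block takes it in. The test was also run on simulated counts, with changes placed in cHyper mTEClo alone. That setting does not cover genes near 0 in mTEClo and high in mTEChi, so it does not check those calls. Every called Hox gene and every one with a mean of at least 1 TPM in a group was described with all libraries, except 1 that is counted but not reported here, and the members, related lists and markers were chosen with earlier results of these data known. Start regions came from RefSeq on GRCm38.p6, matched by symbol.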

Additional observations from a re-analysis of the deposited data

Results flagged for a closer look

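Hoxb13 stood out because its genotype effect differed between the cell types. Its log2 fold change of cHyper over WT was -0.27 in mTEChi (SE 0.24) and 2.79 in mTEClo (SE 0.56), a difference of -3.06 (SE 0.62, edgeR adjusted p = 0.0186). All 3 cHyper mTEClo libraries, with 12, 28 and 6 fragments, lay above all 3 WT mTEClo libraries, with 4, 2 and 0.

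Hoxd3 met the same rule on far fewer fragments. The fitted difference was -4.65 (edgeR adjusted p = 0.0478); since WT mTEClo held 0 fragments, that value depends on the prior count and is not a bound. In mTEChi its log2 fold change of cHyper over WT was 0.17 (SE 0.20, edgeR adjusted p = 0.729).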

How the results depend on the processing

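Of 71 Hox calls between mTEChi and mTEClo, 69 held in every alternative run that gave them a result, and the exceptions were Hoxa7 and Hoxb3 in cHyper. Hoxb1 in WT and Hoxd9 in cHyper had a result in 19 alternatives, the others in 20. None of 76 calls changed direction. Leaving out 1 library gave 34 to 36 calls in cHyper and 35 in WT.

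The genotype counts are small and moved. In mTEClo the 2 calls became 4 with DESeq2 (2 higher, and Hoxb3 and Hoxc4 lower), 1 with the compared groups alone (Hoxb3, lower, with 13 Hox genes tested) and 1 with replicates 1 and 2 only; leaving out 1 library gave 2 to 3. In mTEChi the 1 call became 2 with DESeq2 and 0 with replicates 1 and 2 only, and leaving out 1 library gave 0 to 1. The 2 calls of the difference became 1 with library totals, 1 with limma-voom and 0 with replicates 1 and 2 only, and 0 to 3 without 1 library. The causes were not tested. With the replicate block the counts were 3 in mTEClo (2 higher, 1 lower), 1 in mTEChi, 35 in WT and 36 in cHyper between the cell types, and 2 for the difference; beyond Hoxb3, Hoxd3 and Hoxa3, given above, the block changed no other call.

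By CPM in place of TPM, Hoxa gave 8.97% of the summed level in WT mTEChi, 77.1% in cHyper mTEClo and 71.4% in WT mTEClo; CPM does not divide by gene length. A minimum of 10 fragments lowered the number of Hox genes detected at the common depth to 31.1 in cHyper mTEChi, 30.6 in WT mTEChi, 10.4 in cHyper mTEClo and 9.28 in WT mTEClo. Low counts limit the genotype comparison in mTEClo, where 8 of 37 tested Hox genes had at most 3 fragments in both groups.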
